A study of Mus musculus with 10 samples.

Results

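The 34 genes described here take up long-chain fatty acids into muscle, activate them, carry them into mitochondria and oxidise them. They were found in the deposited count tables by mapping Ensembl identifiers to mouse symbols, and all 34 listed genes were found among 43629 genes. By role they are 4 uptake genes, 4 activation genes, 4 carnitine genes, 7 acyl-CoA dehydrogenases, 5 enzymes of the later steps, 3 enzymes for unsaturated chains, 3 electron-transfer genes and 4 fuel-switch genes. They were listed by role and without a cutoff on measured values, but with earlier results of these data known.

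Lipoprotein lipase on the capillary wall frees fatty acids from circulating lipoproteins, and CD36 and FATP1 bring them into the fibre, where FABP3 carries them. They are joined to coenzyme A by acyl-CoA synthetases and turned into carnitine esters by CPT1. A carrier takes these through the inner mitochondrial membrane, and CPT2 turns them back into coenzyme A esters. Each turn of beta oxidation then uses a chain-length specific dehydrogenase, a hydratase, a second dehydrogenase and a thiolase, and the electrons of the first step reach the respiratory chain through ETF and its oxidoreductase. Muscle raises this pathway during fasting and on fatty diets, largely through PPAR and ERR nuclear receptors, while PDK4 and PDK2 hold back pyruvate oxidation.

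IMP2, encoded by Igf2bp2, is an RNA-binding protein, and the study addressed its function in adult skeletal muscle. Sequenced RNA came from wild-type (WT) muscle (n = 3) and knockout (KO) muscle (n = 3) as total RNA. It also came from immunoprecipitates (IP) made with a home-made IMP2 antibody from WT (n = 2) and KO (n = 2) muscle, which gives 10 libraries. All mice were male C57BL/6, 6 weeks old, and had been on a high-fat diet (HFD) for 2 weeks, so no group on another diet is compared. The sample labels call the knockout an IMP2 null and the series description calls it muscle-specific. The deleted part of the gene, any Cre driver and the muscle taken are not known from the sources used here. Separate animals are not stated for the libraries of a group, and the p-values therefore measure only the spread between these samples, which may be technical.

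Promoter sequence was examined because genes of this pathway share nuclear-receptor control in textbook accounts, and 27 of the 34 genes had an entry in the RefSeq table (GRCm38.p6, 250 bases before to 50 bases after the start). The following 4 are shown because they hold the shared start region of the trifunctional protein genes, the single nuclear-receptor half-site, a promoter with paired GC boxes from the carnitine step, and the promoter of Pdk4, which encodes the kinase induced by fatty acids. Capitals mark GGGCGG in Hadhb and Cpt2, the reverse complement of AAGGTCA in Acadm, and the reverse complement of CCAAT in Pdk4. All are written 5′ to 3′ on the gene's own strand and leave out exon bases.
Hadhb, chr5:30155163-30155247, plus strand: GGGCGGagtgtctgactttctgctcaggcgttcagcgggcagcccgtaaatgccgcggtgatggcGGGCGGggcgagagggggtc
Acadm, chr3:153944644-153944893, minus strand: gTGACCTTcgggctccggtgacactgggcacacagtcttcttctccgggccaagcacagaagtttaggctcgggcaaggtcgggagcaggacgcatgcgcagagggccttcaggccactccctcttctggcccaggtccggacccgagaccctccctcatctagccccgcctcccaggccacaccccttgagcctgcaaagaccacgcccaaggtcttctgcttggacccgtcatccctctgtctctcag
Cpt2, chr4:107923611-107923839, minus strand: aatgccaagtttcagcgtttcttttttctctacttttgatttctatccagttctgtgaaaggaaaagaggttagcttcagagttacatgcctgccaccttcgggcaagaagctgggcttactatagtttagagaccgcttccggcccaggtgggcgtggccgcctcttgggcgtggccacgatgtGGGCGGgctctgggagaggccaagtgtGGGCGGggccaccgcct
Pdk4, chr6:5496310-5496528, minus strand: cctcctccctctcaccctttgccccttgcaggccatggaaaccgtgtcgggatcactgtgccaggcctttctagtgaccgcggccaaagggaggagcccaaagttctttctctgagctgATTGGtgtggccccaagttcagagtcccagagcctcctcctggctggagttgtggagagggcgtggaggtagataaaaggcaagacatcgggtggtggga
The Hadhb sequence is the whole interval between Hadha and Hadhb, which encode the alpha and beta subunits of the trifunctional protein and start 85 bases apart on opposite strands.

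Searched on both strands, the PPAR direct repeat (2 copies of AGGNCA with 1 base between them), the ERR element TCAAGGTCA and the MEF2 box (CTA and TAG with 4 bases between them) were in 0 of the 27 windows. Their share over 27025 genes was 0.451%, 0.466% and 4.23%. The half-site AAGGTCA, which the ERR element contains, was in 1 of 27 (Acadm) against 5.38% of all genes. The NRF1 element (GCGCA and GCGC with 1 base between them) was in 3 (Acad10, Etfb and Etfdh) against 5.19%. The GC box GGGCGG was in 17 of 27 (63.0%) against 38.2%, and CCAAT was in 15 (55.6%) against 41.1%. TATAAA was in 0 of 27 against 15.7% of all genes. No match says only that these letters are not in this window.

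Gene counts came to 9691580 to 14809788 in total RNA libraries and 917462 to 4037480 in IP libraries. Levels are CPM, the counts divided by library size, on 1 TMM scale for all 10 libraries. Igf2bp2 was low and was still counted in KO muscle, at 2.51, 2.86 and 3.35 CPM in the WT libraries and 2.52, 1.88 and 2.47 CPM in the KO libraries. In total RNA the skeletal muscle gene Acta1 was at 40898, 49096 and 17645 CPM in WT and 58735, 48228 and 64463 CPM in KO. Skeletal muscle markers were higher in KO for 9 of 10 (median log2 difference 0.307). Their sums were 60545 to 110452 CPM in WT and 104992 to 142300 CPM in KO. Several libraries also held transcripts of other tissues or fibre types. The sum of 7 brown fat markers was 639 CPM in WT total 2 and 4.81 to 17.9 CPM in the other 5 total RNA libraries, with Cidea at 294 and Ucp1 at 225 CPM in that library. Pancreatic islet markers summed to 2438 CPM in KO total 1, with Ins2 at 1397 CPM, and no other total RNA library exceeded 2.47 CPM. Slow fibre markers summed to 513 CPM in WT total 3 and 450.2 CPM in KO total 3, against 121 to 208 CPM elsewhere. Fast fibre markers summed to 113268 to 192958 CPM in WT and 212623 to 274096 CPM in KO, and the 2 ranges did not overlap. Adipocyte markers were lower in KO for 9 of 10 (median log2 difference -0.715), but for 5 of 10 without WT total 2 (0.019), and their sums overlapped, at 2295 to 4873 CPM in WT and 3411 to 4210 CPM in KO. Endothelial markers were higher in KO for 9 of 10 (0.302), with sums of 742 to 922 CPM in WT and 854 to 1181 CPM in KO. Macrophage markers were lower for 8 of 8 (-0.190), with sums of 190.0 to 428 CPM in WT and 207 to 305 CPM in KO. Without WT total 2, endothelial markers were still higher for 9 of 10 (0.362) and macrophage markers lower for 8 of 8 (-0.208). Non-muscle cells, adipocytes and endothelial cells among them, also express Cd36, and adipocytes are among those that express Lpl. The part of these differences in the results on fatty acid genes was not tested, apart from the values given without single libraries.

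**Figure D1:**
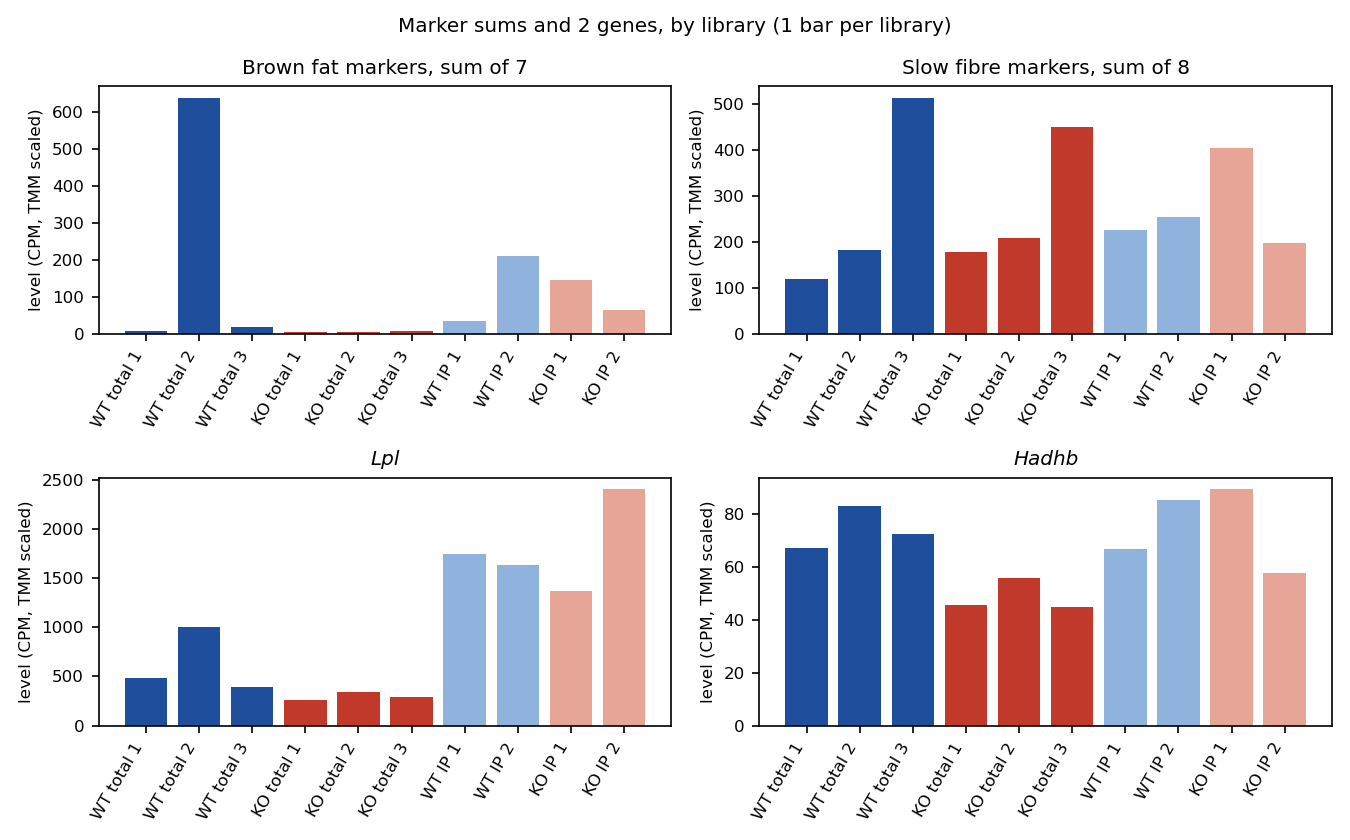
Level in CPM (y axes, from 0) in each of the 10 libraries (x axes) of the summed brown fat markers, the summed slow fibre markers, Lpl and Hadhb, with 1 bar per library. WT total 2 is the library with the highest brown fat sum and the highest Lpl among total RNA libraries, while Hadhb is at 67.2 to 83.1 CPM in all 3 WT total RNA libraries and at 44.7 to 55.9 CPM in KO.

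In total RNA, most fatty acid genes had somewhat lower values in KO than in WT muscle, but none passed the test. The log2 difference (KO minus WT) was negative for 31 of 34 genes, with a median of -0.304. Over all 13169 genes tested, 52% were negative and the median was -0.0116. At an adjusted p under 0.05 (edgeR), 0 of 34 fatty acid genes were called, against 0% of all genes tested. At an unadjusted p under 0.05 there were 7, all lower in KO, namely Hadhb, Lpl, Slc27a1, Cpt1b, Cpt2, Etfdh and Acadm, against 2.29% of all genes lower and 2.03% higher. DESeq2 called 0 of 34, against 5 genes (0.038%) of all, and limma-voom called 0 of 34, against 0%. With no filter on low counts edgeR called 1 of 34, Lpl, against 0.271% of all genes. In bulk RNA, fewer cells of a type and less RNA per cell cannot be told apart.

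For 11 of the 34 genes every KO library was below every WT library, and for 1 gene, Pdk2, every KO library was above. Among all genes tested these patterns were found in 4.56% and 5.06%. They were counted on the TMM scale of all 10 libraries and not under other scalings. The 11 were Lpl, Cd36, Slc27a1, Acsl1, Cpt2, Acadl, Acadm, Acads, Echs1, Hadha and Hadhb. The WT libraries differed among themselves. The mean log2 level of the 34 genes, relative to the mean of the 6 libraries, was 0.257, 0.120 and -0.0091 in WT 1, 2 and 3, and -0.134, -0.158 and -0.0757 in KO 1, 2 and 3. WT total 1 was above the 6-library mean for 33 of 34 genes. It was the highest library for 13 genes, WT total 2 for 8 and WT total 3 for 7. WT total 3 was also the lowest library for 9 genes, and WT total 1 and 2 for 0. KO total 1, 2 and 3 were the lowest for 10, 6 and 9.

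**Figure D2:**
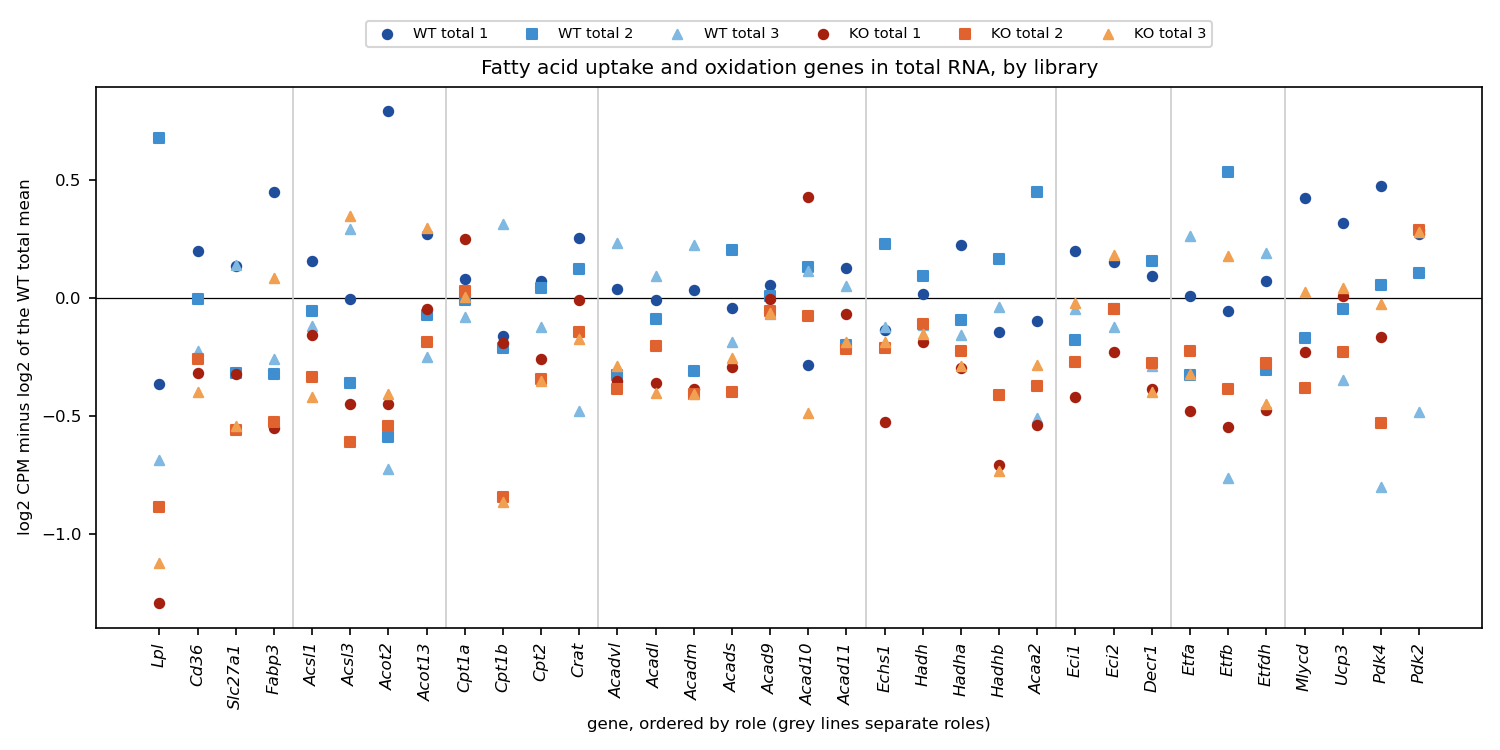
Log2 CPM of each fatty acid gene in each total RNA library, minus log2 of the mean of the 3 WT libraries (y axis), with genes ordered by role along the x axis and 1 point per library. KO points lie mostly below 0, WT total 2 stands high for Lpl, Etfb and Acaa2, and WT total 1 stands high for Acot2, Pdk4 and Fabp3.

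Uptake genes. Lpl (ENSMUSG00000015568, chromosome 8, 68880491 to 68907448, plus strand, GRCm38), which encodes lipoprotein lipase, was at 487, 1002 and 389 CPM in the WT libraries and 256, 339 and 287 CPM in the KO libraries. Each KO value lay below each WT value, and WT total 2, the library with brown fat transcripts, was the highest. The log2 difference was -1.10 ± 0.33 (SE, unadjusted p = 0.00837, adjusted p = 0.897), and without WT total 2 it was -0.56 ± 0.21 (unadjusted p = 0.0261). Slc27a1 (ENSMUSG00000031808, chromosome 8, 71568882 to 71587302, plus strand), which encodes the fatty acid transporter FATP1, was at 163, 119 and 163 CPM in the WT libraries and 118, 101 and 102 CPM in the KO libraries. The highest KO library sat just below the lowest WT library, WT total 2, and the log2 difference was -0.48 ± 0.17 (unadjusted p = 0.0204, adjusted p = 0.897). Without WT total 2 it was -0.60 ± 0.18. Cd36, which encodes the fatty acid translocase, was at 459, 399 and 342 CPM in the WT libraries and 321, 334 and 303 CPM in the KO libraries, again with no overlap, and differed by -0.33 ± 0.16 (unadjusted p = 0.0722). Fabp3, the fatty acid binding protein of heart and muscle, overlapped between the groups, with 224 ± 70.6 CPM in WT and 182 ± 47.8 CPM in KO muscle (mean ± SD, n = 3 each).

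Activation and thioesterase genes were less uniform. Acsl1, the main long-chain acyl-CoA synthetase of muscle, averaged 517 ± 52.8 CPM in WT and 420.0 ± 39.2 CPM in KO muscle (mean ± SD, n = 3 each), without overlap. Acsl3, a synthetase of lipid droplets and the endoplasmic reticulum, overlapped at 19.0, 14.8 and 23.3 CPM in the WT libraries and 13.9, 12.5 and 24.2 CPM in the KO libraries. Acot2, a mitochondrial acyl-CoA thioesterase, was at 26.9, 10.3 and 9.42 CPM in the WT libraries and 11.4, 10.7 and 11.7 CPM in the KO libraries. Only WT total 1 stood high, and without it the log2 difference of Acot2 was 0.18 ± 0.21 in place of -0.47 ± 0.37. Acot13, another thioesterase, was at 82.5 ± 15.4 CPM in WT and 84.6 ± 15.0 CPM in KO muscle (mean ± SD, n = 3 each).

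Among the carnitine genes, Cpt2 and Cpt1b had lower values in KO and Cpt1a did not. Cpt2 (ENSMUSG00000028607, chromosome 4, 107903981 to 107923610, minus strand), which releases the acyl group inside the mitochondrion, was at 149, 146 and 130.1 CPM in the WT libraries and 118, 112 and 111 CPM in the KO libraries. The groups did not overlap, and the log2 difference was -0.32 ± 0.14 (unadjusted p = 0.0419, adjusted p = 0.897). Cpt1b (ENSMUSG00000078937, chromosome 15, 89416405 to 89425863, minus strand), the muscle form of the outer-membrane transferase that malonyl-CoA inhibits, was at 14.0, 13.5 and 19.4 CPM in the WT libraries and 13.7, 8.70 and 8.57 CPM in the KO libraries. KO total 1 lay within the WT range, and the log2 difference was -0.61 ± 0.24 (unadjusted p = 0.0315). Cpt1a, the liver form, was at 29.7, 27.9 and 26.6 CPM in the WT libraries and 33.4, 28.7 and 28.2 CPM in the KO libraries, a log2 difference of 0.093 ± 0.14 that became -0.12 when libraries were scaled by size alone. Crat, which exchanges acetyl groups between carnitine and coenzyme A, averaged 721 ± 179.6 CPM in WT and 669.6 ± 41.6 CPM in KO muscle (mean ± SD, n = 3 each), with overlap.

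The 7 acyl-CoA dehydrogenases all had negative log2 differences, from -0.41 for Acadm to -0.0062 for Acad10. Acadm (ENSMUSG00000062908, chromosome 3, 153922357 to 153944632, minus strand), the medium-chain dehydrogenase, was at 356, 281 and 407 CPM in the WT libraries and 267, 263 and 263 CPM in the KO libraries. The 3 KO libraries were within 4 CPM of each other, below every WT library, and the log2 difference was -0.41 ± 0.17 (unadjusted p = 0.0445, adjusted p = 0.897). Acadl, the long-chain dehydrogenase, was at 583, 551 and 625 CPM in the WT libraries and 457, 509.7 and 444 CPM in the KO libraries, without overlap. Acads, the short-chain dehydrogenase, was at 164, 195 and 149 CPM in the WT libraries and 138, 128 and 142 CPM in the KO libraries, also without overlap. Acadvl, which starts very long chains on the inner membrane, was at 379, 295 and 434 CPM in the WT libraries and 289.5, 282 and 302 CPM in the KO libraries, with WT total 2 inside the KO range. The log2 differences of Acadl, Acads and Acadvl were -0.32 ± 0.16, -0.32 ± 0.16 and -0.35 ± 0.18 (unadjusted p = 0.0661, 0.0687 and 0.0822). Acad9, which also assembles complex I, differed by -0.048 ± 0.13, and Acad11 by -0.16 ± 0.15.

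Of the later steps, Hadhb had the smallest p of all 34 genes. Hadhb (ENSMUSG00000059447, chromosome 5, 30155248 to 30184593, plus strand), the thiolase subunit of the trifunctional protein, was at 67.2, 83.1 and 72.4 CPM in the WT libraries and 45.4, 55.9 and 44.7 CPM in the KO libraries. The highest KO library was below the lowest WT library, the log2 difference was -0.61 ± 0.16 (unadjusted p = 0.00368, adjusted p = 0.897), and without WT total 2 it was -0.51 ± 0.19. Its neighbour Hadha (chromosome 5, 30118304 to 30155162, minus strand), the hydratase and dehydrogenase subunit across the 85 bases shown above, was at 701, 563 and 539 CPM in the WT libraries and 489, 514 and 493 CPM in the KO libraries. Hadha also did not overlap, with a log2 difference of -0.27 ± 0.16 (unadjusted p = 0.129). Echs1, the short-chain hydratase, differed by -0.31 ± 0.17 without overlap, and Hadh, the short-chain hydroxyacyl-CoA dehydrogenase, by -0.16 ± 0.14 with overlap. Acaa2, the medium-chain thiolase, differed by -0.40 ± 0.24, and by -0.093 ± 0.21 without WT total 2, where it was highest.

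For unsaturated chains, Decr1, the 2,4-dienoyl-CoA reductase, was at 221, 231 and 169.5 CPM in the WT libraries and 159, 171 and 157 CPM in the KO libraries. WT total 3 lay inside the KO range, and the log2 difference was -0.36 ± 0.16 (unadjusted p = 0.0561). The enoyl-CoA isomerases Eci1 and Eci2 differed by -0.23 ± 0.17 and -0.025 ± 0.16, both with overlap. Among the electron-transfer genes, Etfdh (ENSMUSG00000027809, chromosome 3, 79603788 to 79629500, minus strand), which hands electrons to ubiquinone, was at 267, 206 and 289 CPM in the WT libraries and 182, 209.6 and 186 CPM in the KO libraries. Its lowest WT value, in WT total 2, was below the highest KO value, and the log2 difference was -0.40 ± 0.17 (unadjusted p = 0.0444, adjusted p = 0.897). Without WT total 2 it was -0.52 ± 0.19. The ETF subunit genes Etfa and Etfb differed by -0.34 ± 0.18 and -0.22 ± 0.32. For Etfb, WT total 2 was the highest library, and without it the log2 difference was 0.16 ± 0.29.

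The fuel-switch genes showed no common direction. Pdk4, the pyruvate dehydrogenase kinase that rises with fatty acid supply, was at 1612, 1206 and 666 CPM in the WT libraries and 1036, 805 and 1141 CPM in the KO libraries. The WT libraries spanned the whole KO range, and the log2 difference was -0.23 ± 0.30, which turned to 0.076 ± 0.29 without WT total 1. Ucp3, the mitochondrial carrier induced by fatty acids, was at 319, 247 and 201 CPM in the WT libraries and 257, 218 and 263 CPM in the KO libraries. It also overlapped, with a log2 difference of -0.06 ± 0.19, and 0.12 ± 0.20 without WT total 1. Pdk2, the constitutive kinase, was at 481, 481 and 478 CPM in KO, above WT values of 477, 424 and 282 CPM, by 0.28 ± 0.20 on the log2 scale (unadjusted p = 0.202). The lowest KO value sat just above the highest WT value, and with library size alone the log2 difference was 0.089 ± 0.17. Mlycd, which degrades malonyl-CoA, differed by -0.19 ± 0.22, with overlap.

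Some values depended on single libraries. Without WT total 2, which held brown fat transcripts, 29 of 34 genes were negative, the median was -0.271, and 8 genes, all lower in KO, had an unadjusted p under 0.05, against 3.26% of all genes lower. These 8 were Slc27a1, Acadm, Etfdh, Hadhb, Lpl, Cpt1b, Acadvl and Etfa, and none passed after adjustment. Every KO library was then below both WT libraries for 16 genes, against 10.9% of all genes tested. Without WT total 2 and KO total 1, which held islet transcripts, 29 genes were negative, with a median of -0.243 and 2 genes (Slc27a1 and Cpt1b) at an unadjusted p under 0.05, against 2.41% of all genes lower. Without WT total 1, 25 genes were negative, with a median of -0.209 and 3 genes (Lpl, Hadhb and Cpt1b) at an unadjusted p under 0.05, against 3.54%. Acot2, Crat, Eci2, Mlycd, Pdk4 and Ucp3 were then positive beside Pdk2, Cpt1a and Acot13. Every KO library was below both WT libraries for 11 genes and above both for 3, against 8.59% and 10% of all genes. Without WT total 3, 30 genes were negative with a median of -0.312 and 10 had an unadjusted p under 0.05, against 2.39%, and every KO library was below both WT libraries for 17 genes, against 8.47% of all genes. KO libraries mattered as well. The genes at an unadjusted p under 0.05 were Lpl, Slc27a1, Hadhb and Cpt1b without KO total 1 (2.03% of all genes lower), and only Lpl and Hadhb without KO total 2 (1.55%) or without KO total 3 (1.07%).

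**Figure D3:**
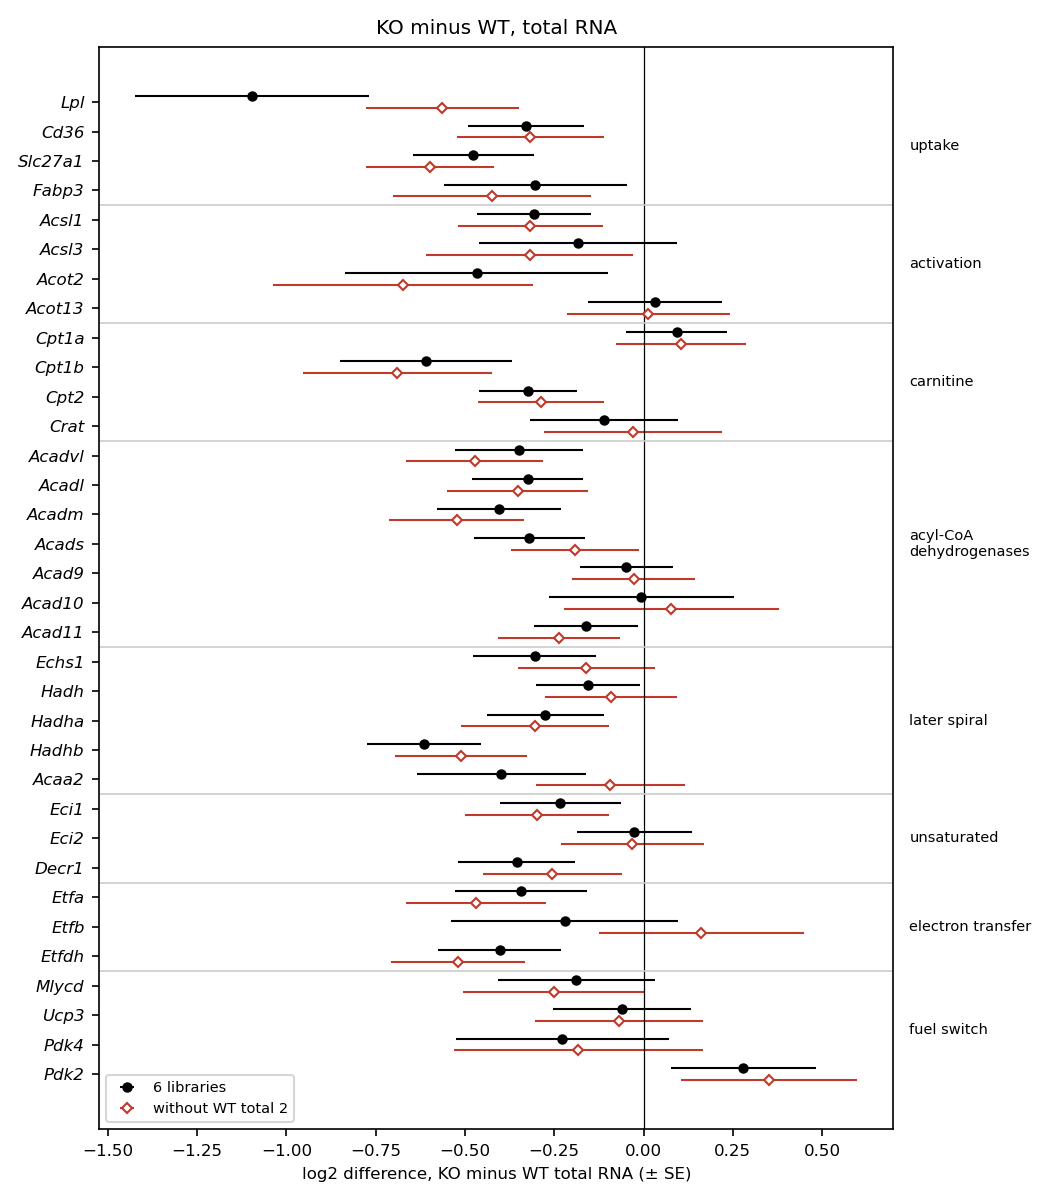
Log2 difference, KO minus WT total RNA (x axis), for each fatty acid gene (y axis, grouped by role), with bars of 1 SE, for all 6 libraries (filled circles) and without WT total 2 (open diamonds). Of the 34 values from 6 libraries 31 lie below 0, and the largest shift without WT total 2 is that of Lpl, from -1.10 to -0.56.

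Transcript levels per length differed widely between these genes in WT total RNA. Per kilobase of the transcript with the longest coding sequence, Pdk4 had 333 CPM, Acadl 306, Etfb 299, Fabp3 272 and Acaa2 235. At the other end were Cpt1a with 6.50, Cpt1b with 5.40, Acsl3 with 4.82 and Acad10 with 1.94 CPM per kilobase. The ranges over the 3 WT libraries overlapped for 29 of the 33 pairs of neighbours in this order, so the order among most of them is not resolved. The neighbours that did not overlap were Slc27a1 and Hadhb, Hadhb and Acad11, Acad11 and Acad9, and Acsl3 and Acad10. The muscle and liver forms of CPT1 were neighbours with overlapping ranges on this scale. Hadhb had 36.2 CPM per kilobase beside 149.7 for Hadha. In KO the corresponding values were 23.8 and 124. Ambiguous reads and reads aligned to several places were not counted for any gene, and the part of this in these levels was not tested.

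Related genes outside the 34 were examined in the same total RNA fit, and 0 of any list passed after adjustment. Of 24 tested genes of other fatty acid, acyl-CoA and ketone body steps (the other beta oxidation list), 17 were negative, with a median of -0.206. Not all of these act in mitochondria. The acetyl-CoA synthetase gene Acss1 was at 23.8, 25.5 and 24.1 CPM in the WT libraries and 13.5, 19.1 and 13.0 CPM in the KO libraries (-0.69 ± 0.18), and Acat1, the mitochondrial acetoacetyl-CoA thiolase, Slc22a5, the carnitine transporter OCTN2, and Acsf3, the malonyl-CoA synthetase, differed by -0.42 ± 0.16, -0.40 ± 0.16 and -0.34 ± 0.16. Peroxisomal oxidation genes were negative for 11 of 15, with a median of -0.260, led by the phytanoyl-CoA hydroxylase gene Phyh (-0.41 ± 0.15) and by Hsd17b4 (-0.34 ± 0.15). Of 26 regulators, among them PPAR and ERR receptors, coactivators and corepressors, 18 were negative, with a median of -0.132. Ppara, the receptor PPAR alpha, was at 8.02, 5.63 and 8.09 CPM in the WT libraries and 4.81, 3.26 and 3.52 CPM in the KO libraries, without overlap, a log2 difference of -0.92 ± 0.25 (unadjusted p = 0.00487, adjusted p = 0.897). Sirt1, a deacetylase that acts on PGC-1 alpha, was at 11.1, 10.5 and 13.0 CPM in the WT libraries and 7.57, 9.39 and 7.05 CPM in the KO libraries (-0.53 ± 0.19).

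Pyruvate and malonyl-CoA genes were negative for 13 of 17, with a median of -0.100. Pdpr, the regulatory subunit of pyruvate dehydrogenase phosphatase, was at 76.0, 87.7 and 75.4 CPM in the WT libraries and 60.9, 46.4 and 39.9 CPM in the KO libraries (-0.71 ± 0.18, unadjusted p = 0.00317). Acaca, the acetyl-CoA carboxylase of fat synthesis, was at 40.4 CPM in WT total 2 and at 4.85 to 7.89 CPM in the other 5 libraries. Propionate genes were negative for 5 of 6, with a median of -0.0952, and tricarboxylic acid cycle genes for 8 of 13, with a median of -0.0536. The nuclear genes of the respiratory chain lay on the other side, with 10 of 34 negative and a median of 0.104, and so did uptake partners, with 3 of 11 negative and a median of 0.104. Examples on that side were Cox6a2 (0.48 ± 0.23) of complex IV, and Mfge8 (0.49 ± 0.21) and Fabp5 (0.55 ± 0.24), both linked to fatty acid uptake. Fast fibre markers were positive for 11 of 11 with a median of 0.510. Slow fibre markers were negative for 4 of 8 with a median of -0.0050. The myosin gene Myh2 of the oxidative 2A fibres, which was in neither list and was picked after its values were seen, was at 855, 1234 and 1003 CPM in the WT libraries and 604, 593 and 667 CPM in the KO libraries. Whether fibre composition had a part in the fatty acid gene values was not tested.

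**Figure D4:**
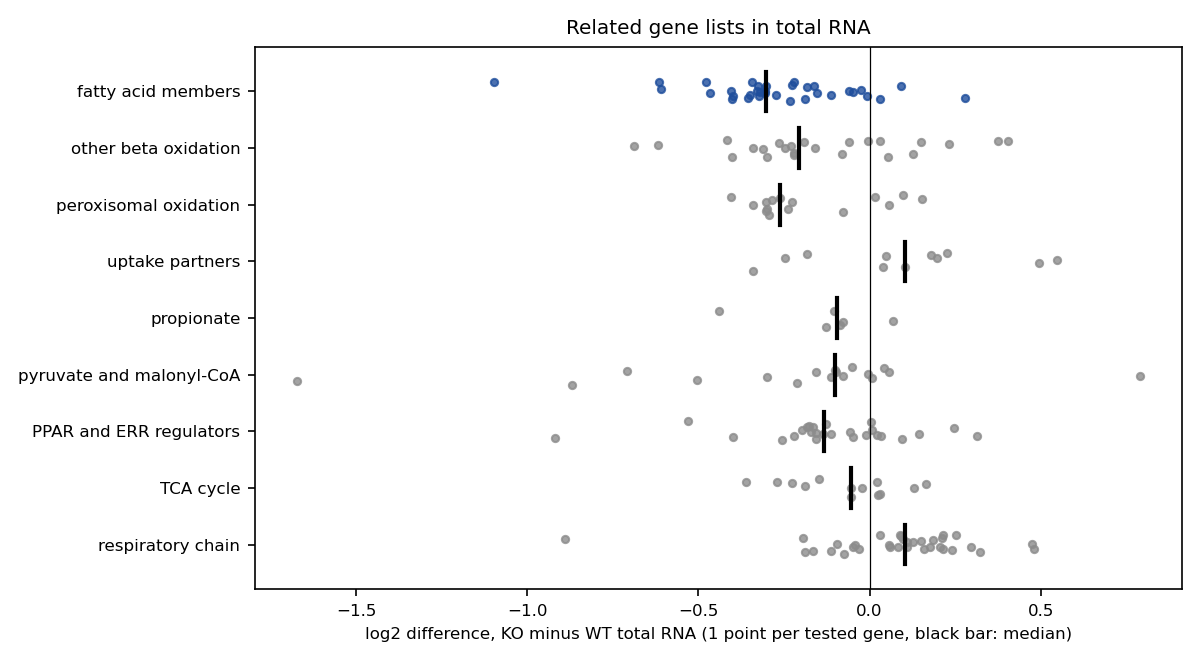
Log2 difference, KO minus WT total RNA (x axis), of each tested gene (points) in the fatty acid set and in 8 related lists (y axis), with a black bar at the median of each. The fatty acid, other beta oxidation and peroxisomal medians are at -0.304, -0.206 and -0.260, and the respiratory chain and uptake partner medians are both at 0.104.

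The IP libraries were compared between WT and KO, with the KO IP as the background of the antibody. Of the 33 fatty acid genes tested, 0 passed (edgeR), against 0% of all 10730 genes tested. DESeq2 called 0 of the 33 and 57 (0.531%) of all genes. The log2 difference (WT minus KO) was negative for 17 of 33 genes, against 50.9% of all genes, and the median was -0.0037 against -0.0123 over all genes. At an unadjusted p under 0.05, 3 genes were higher in the WT IP (Fabp3, Etfb and Etfa) and 2 lower (Acsl3 and Ucp3), against 4.83% and 5.68% of all genes. The WT IP was above the KO IP in all libraries for 7 of the 34 genes and below it for 7, patterns found in 20.6% and 20.5% of all genes tested.

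Fabp3 was at 98.0 and 84.1 CPM in the 2 WT IP libraries against 55.7 and 44.2 CPM in the 2 KO ones, and the log2 difference was 0.89 ± 0.25 (unadjusted p = 0.00328, adjusted p = 0.249). Etfb was at 246 and 291 CPM in the 2 WT IP libraries against 186 and 174 CPM in the 2 KO ones (0.57 ± 0.22), and Etfa at 51.7 and 69.0 CPM in the 2 WT IP libraries against 46.1 and 26.3 CPM in the 2 KO ones (0.81 ± 0.31). For these genes both WT IP libraries were above both KO IP libraries. Acsl3 was at 2.10 and 4.67 CPM in the 2 WT IP libraries against 16.3 and 9.75 CPM in the 2 KO ones, from 5 and 12 counts (WT) against 17 and 47 (KO), and the log2 difference was -1.86 ± 0.65 (unadjusted p = 0.0112, adjusted p = 0.307). Ucp3 was at 173 and 148 CPM in the 2 WT IP libraries against 215 and 254 CPM in the 2 KO ones (-0.56 ± 0.22), and Hadha at 487 and 521 CPM in the 2 WT IP libraries against 678 and 635 CPM in the 2 KO ones (-0.39 ± 0.21, unadjusted p = 0.0865). For these genes both WT IP libraries were below both KO IP libraries.

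None of the other genes named in total RNA had an unadjusted p under 0.05 between the IPs. Acadvl, Acad9, Acads and Acot13 differed by -0.54 ± 0.48, -0.53 ± 0.33, 0.48 ± 0.27 and 0.47 ± 0.28, all without overlap except Acadvl. Cd36 was at 375 and 322 CPM in the 2 WT IP libraries against 426 and 473 CPM in the 2 KO ones, with both WT libraries below both KO libraries (-0.38 ± 0.22, unadjusted p = 0.101). Blood and endothelial markers were lower in the WT IP as well. The 2 WT IP sums of blood markers were 156 and 310 CPM against 483 and 778 CPM in the 2 KO ones, with 4 of 4 tested genes lower. Those of endothelial markers were 1084 and 1107 CPM against 1256 and 1822 CPM, with 10 of 10 lower. Their part in the IP values of Cd36 and other genes was not tested. Lpl was at 1739.5 and 1633 CPM in the 2 WT IP libraries against 1371 and 2402 CPM in the 2 KO ones, with both WT values inside the KO range, and Slc27a1 at 106 and 89.2 CPM in the 2 WT IP libraries against 123 and 104 CPM in the 2 KO ones. Cpt2 was at 68.1 and 70.1 CPM in the 2 WT IP libraries against 89.4 and 62.2 CPM in the 2 KO ones, Cpt1a at 25.2 and 20.3 CPM in the 2 WT IP libraries against 17.3 and 25.1 CPM in the 2 KO ones and Hadhb at 66.9 and 85.3 CPM in the 2 WT IP libraries against 89.4 and 57.7 CPM in the 2 KO ones, all with overlap. Acadm was at 60.1 and 108 CPM in the 2 WT IP libraries against 94.2 and 83.0 CPM in the 2 KO ones, and Pdk4 at 442 and 351 CPM in the 2 WT IP libraries against 418 and 374 CPM in the 2 KO ones. Cpt1b was counted 4 and 3 times in the WT IP and 3 and 8 times in the KO IP, and it was left out of this test as too low. A count of 0 would allow up to 3 counts, so these values are near the lower limit of detection.

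Within the set, the IP difference varied with transcript length. Of 11 tested genes with transcripts under 2000 bases, 9 were higher in the WT IP, with a median log2 difference of 0.33. Of 22 genes with longer transcripts 7 were higher, with a median of -0.11. The limit of 2000 bases was chosen after the values were seen, and no test was made. Across the 33 genes Spearman's rho between transcript length and the log2 difference was -0.586, and across 10413 coding genes tested it was -0.136. Fabp3 (823 bases), Etfb (893 bases) and Etfa (1392 bases) were among the short ones, and Acsl3 (3950 bases) and Hadha (4017 bases) among the long ones. In total RNA the corresponding rho over the 34 genes was 0.0686, and for IP against total RNA it was 0.107 in WT and 0.341 in KO. Of the transcript features examined between the IPs, length had the largest rho in the set. For coding length, 3′ UTR length, exon number and GC content it was -0.489, -0.445, -0.358 and 0.335. Over all coding genes tested these values were -0.231, 0.00182, -0.225 and 0.0931. The correlations share their libraries and depth across genes and are given as descriptions. Outside the set, nuclear genes of the respiratory chain were higher in the WT IP for 29 of 34, with a median of 0.369.

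Against total RNA, many fatty acid transcripts made up a smaller share of the IP, in both genotypes, as did those of several related lists. In WT, 20 of 34 genes passed (edgeR, adjusted p under 0.05), of which 18 were lower in the IP and 2 higher. Of all 14399 genes tested, 37% passed, 19.4% lower and 17.6% higher. The median log2 difference (IP minus total RNA) was -0.622 for the 34 genes and -0.0487 for all genes. In KO, 17 of 34 passed, 14 lower and 3 higher, against 36.5% of all genes, 18.8% lower and 17.7% higher, and the medians were -0.465 and 0.0345. When all 10 libraries were scaled by size alone, 9 genes passed in KO as lower and 10 as higher, against 9.99% and 29.6% of all genes. The KO median was then -0.0129, and the KO median of all genes moved to 0.469. Without KO IP 2, the deeper KO IP library, 10 of 34 passed in KO, 7 lower and 3 higher, against 8.03% and 6.18% of all genes. A total of 16 genes passed in both genotypes with the same direction, 80% of the WT calls and 94.1% of the KO calls. Of all genes tested 24.1% did so, 65.1% of the WT calls and 66% of the KO calls. Tricarboxylic acid cycle genes in WT passed as lower for 11 of 13 and higher for 0 (median -1.19). Pyruvate and malonyl-CoA genes were at 10 and 1 of 17 (-0.949), and peroxisomal genes at 8 and 0 of 15 (-0.612). Skeletal muscle markers were at 6 and 1 of 10 (-1.20), and respiratory chain genes at 13 and 5 of 34 (-0.228). Uptake partners went the other way, at 0 and 4 of 11 (0.287). KO medians, in this order, were -1.32, -0.988, -0.665, -1.56, -0.687 and 0.208. The list of other beta oxidation genes differed between genotypes. In WT 7 of 25 passed as lower and 3 as higher (median -0.426). In KO 3 passed as lower and 3 as higher, 14 of 25 were positive and the median was 0.0573.

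Among the genes called as lower in the IP were dehydrogenases and electron-transfer genes. Acadvl went from 369 ± 70.1 CPM in WT total RNA (SD, n = 3) to 21.03 and 22.6 CPM in the WT IP, a log2 difference of -4.08 ± 0.43 (adjusted p = 1.86e-05). In KO it went from 291 ± 9.98 CPM (SD, n = 3) to 55.7 and 14.7 CPM (-3.22 ± 0.42, adjusted p = 7.97e-05). The log2 difference (IP minus total RNA) of Etfdh was -2.28 ± 0.23 in WT and -1.93 ± 0.23 in KO. Etfa was lower by the same measure at -1.89 ± 0.27 and -2.36 ± 0.29, Acadm at -2.05 ± 0.26 and -1.58 ± 0.26, and Acadl at -1.57 ± 0.22 and -1.37 ± 0.22. Cpt1b was at -3.45 ± 0.46 in WT and -2.40 ± 0.45 in KO, from the few IP counts given above. Etfb, the partner subunit of Etfa, was at 0.0063 ± 0.31 in WT and -0.35 ± 0.32 in KO and passed in neither. The trifunctional protein genes also passed in neither genotype, with -0.25 ± 0.20 and 0.40 ± 0.20 for Hadha and 0.037 ± 0.22 and 0.56 ± 0.23 for Hadhb.

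Lpl and Pdk2 were higher in the IP than in total RNA in both genotypes. All 4 IP values of Lpl, which were 1371 to 2402 CPM, lay above those of every total RNA library. Its log2 differences were 1.43 ± 0.34 in WT (adjusted p = 0.00528) and 2.68 ± 0.35 in KO (adjusted p = 8.27e-05). Pdk2 was at 935 and 861 CPM in the 2 WT IP libraries against 747 and 773 CPM in the 2 KO ones, against 282 to 481 CPM in total RNA, with log2 differences of 1.19 ± 0.22 (adjusted p = 0.00101) and 0.66 ± 0.22 (adjusted p = 0.0322). The KO call of Pdk2 was lost without any single one of the 3 KO total RNA or 2 KO IP libraries. Acot2 was higher in the KO IP, by 1.70 ± 0.39 (adjusted p = 0.00367), and its WT value of 0.92 ± 0.38 did not pass (adjusted p = 0.0698). Pdk4 was lower in the IP, at -1.55 ± 0.32 in WT and -1.33 ± 0.32 in KO. Brown fat markers summed to 147 CPM in KO IP 1 and 65.6 CPM in KO IP 2, while KO total RNA libraries had 4.81 to 7.40 CPM. Their log2 differences in KO (IP minus total RNA) were positive for 7 of 7, with a median of 3.62, and 2 passed. For WT the sums were 34.1 CPM (IP 1) and 212 CPM (IP 2), beside 7.09, 639 and 17.9 CPM in WT total 1, 2 and 3. There 6 of 7 were negative, with a median of -0.83, and 0 passed. Islet markers ranged from 44.6 to 380.5 CPM across the IP libraries, and macrophage markers reached 692.7 CPM in WT IP 1. The part of these transcripts in the IP differences, those of Lpl among them, was not tested.

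**Figure D5:**
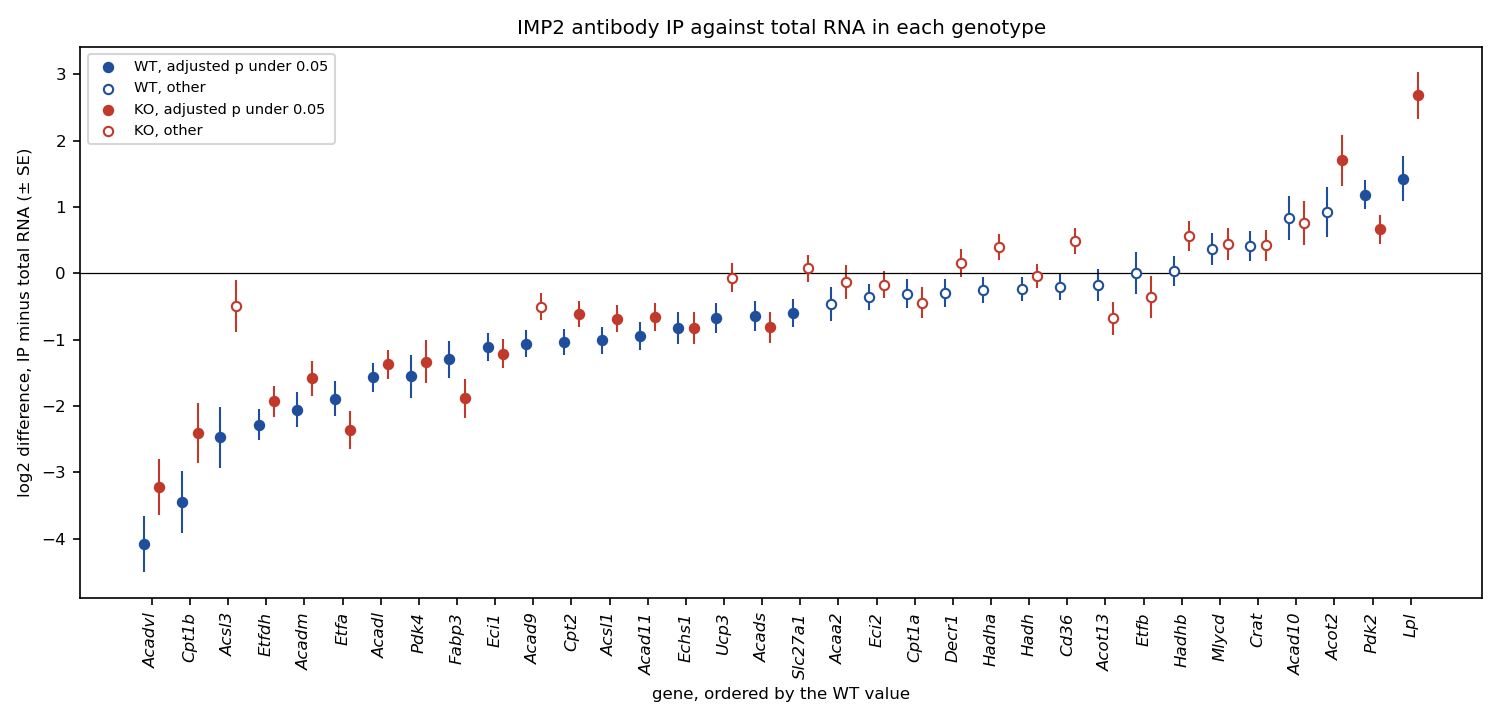
Log2 difference, IP minus total RNA (y axis, bars of 1 SE), for each fatty acid gene (x axis, ordered by the WT value) in WT and KO, with filled points where the adjusted p was under 0.05. Acadvl and Cpt1b are lowest in both genotypes, and Lpl is the highest. The KO points lie higher when libraries are scaled by size alone, with a median of -0.0129 in place of -0.465.

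Whether the IP share differed between genotypes was tested as the interaction. Of the 34 genes 0 passed (edgeR), against 0.00694% of all 14399 genes, which is 1 gene, and DESeq2 called 0 of 34 and 17 (0.118%) of all genes. With no filter on low counts edgeR called 2 of 34, Acsl3 and Lpl, against 1.1% of all genes. At an unadjusted p under 0.05 there were 5, all with a smaller IP share relative to total RNA in WT than in KO, against 6.45% of all genes in that direction and 5.38% in the other. They were Acsl3 (-1.98 ± 0.61, unadjusted p = 0.00557, adjusted p = 0.342), Lpl (-1.25 ± 0.50), Cd36 (-0.69 ± 0.28), Hadha (-0.65 ± 0.28) and Slc27a1 (-0.68 ± 0.29), and Ucp3 came next (-0.61 ± 0.31). The value of Lpl was -0.74 ± 0.39 without WT total 2. Those of Acsl3, Cd36, Hadha and Slc27a1 were then -2.12, -0.69, -0.69 and -0.81. The interaction was negative for 25 of 34 genes with a median of -0.308, against 51.3% of all genes and a median of -0.0226. Marker lists also differed in it. Brown fat markers were negative for 7 of 7 (median -4.12), islet markers positive for 9 of 9 (8.22) and fast fibre markers for 11 of 11 (0.989). Respiratory chain genes were positive for 29 of 34 (0.462). The part of tissue content in the interaction values was not tested. This contrast contains the total RNA and IP comparisons above and is not independent of them.

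Some values rest on genes that share sequence with others. In the GENCODE M21 annotation, exons of 10 of the 34 genes overlapped those of another gene, 8 of them on the opposite strand and 3 on the same strand. The largest overlap was that of Acadvl, with 42.9% of its exon bases covered by genes on the opposite strand, followed by Fabp3 with 19.6%. How strand was handled in counting is not known from the sources used here, and reads of such pairs may not be told apart. Acot2 has a near-identical neighbour, Acot1, and its counts are uncertain for that reason.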

How the data were processed

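Reads had been aligned and counted by the authors with STAR and HTSeq on GRCm38 (mm10), per the submitters' processing notes. The authors deposited whole-number read counts per Ensembl gene and library. Versions, annotation release and strand setting are not given in the sources used here. Lines for unassigned reads were left out of all totals. Reads aligned to several places were 26.1% to 43.3% of a library, and ambiguous reads 3.30% to 6.03%.

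Genes that passed filterByExpr were scaled with TMM factors. The test was edgeR's two-sided quasi-likelihood F test (edgeR 4.0.16, R 4.3.3), adjusted by Benjamini-Hochberg over all genes tested, with calls at 0.05. Total RNA (6 libraries) and IP (4 libraries) were fitted apart, and IP against total RNA and the interaction in a fit of all 10. DESeq2 1.42.0, limma-voom (limma 3.58.1), other scalings, no filter, a replicate block and left-out libraries were alternatives. The limit that a count of 0 allows, 3 counts, came to 0.209 to 0.360 CPM in total RNA and 0.622 to 2.88 CPM in the IP on the TMM scale and covers counting error only. No 2 libraries of a group agreed within sampling noise. The edgeR steps were tested on simulated counts with 200 changed genes. In the data 37% of genes were called in WT and 36.5% in KO IP against total RNA. The simulated rates may therefore not carry over to these comparisons or to the interaction, which comes from the same fit. For total RNA (13071 genes), 51% of 2-fold and 88% of 4-fold changes were recovered. For the IP comparison (10271 genes), 21% and 72% were recovered. For IP against total RNA it was 10% and 68% in WT (13628 genes) and 10% and 69% in KO (13643 genes), and for the interaction (13730 genes) 3% and 33%.

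The genes and lists were chosen with earlier results of these data known. Values per library are given for the 12 genes with the smallest p in total RNA, the 6 in the IP comparison, the 6 in the interaction and 10 fixed genes. Those of Acot2 and Pdk2 are given outside this rule. Of each related list up to 4 genes with the smallest p may be named. Of 8 brown fat markers, Gyk was not found. The alternative without both WT total 2 and WT total 3 was chosen after seeing the data.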

Additional observations from a re-analysis of the deposited data

How the results depend on the processing

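In total RNA, 0 of the 34 genes were called under every alternative except no filter, where 1 (Lpl, adjusted p = 0.0464) was called among 64 genes. The median log2 difference ranged from -0.359 (without WT total 2 and 3, chosen after seeing the data) to -0.209, except with library size alone, where it was -0.516 and the median of all genes was -0.231. With library size alone the medians were -0.131 for the IP comparison (all genes -0.157), -0.0129 for IP against total RNA in KO (all genes 0.469) and -0.668 for the interaction (all genes -0.397). With no filter, 2 genes (Acsl3 and Lpl) were called in the interaction. Among single genes, Cpt1a in total RNA reversed to -0.12 with library size alone, and, with 1 library left out, Pdk4 ranged from -0.495 to 0.0765 and Ucp3 from -0.195 to 0.123, positive without WT total 1 (both) and without KO total 2 (Ucp3, 0.0207). Leaving out 1 library at a time, the genes called in KO IP against total RNA ranged from 10 to 19 with medians of -0.59 to -0.289, the medians in WT from -0.694 to -0.499, those of the IP comparison from -0.115 to 0.0889 and those of the interaction from -0.443 to -0.189. Where 1 IP library was left, it was assumed to vary like the other groups. Named genes lost their call in 31 of 289 fits in KO (8 genes) and 21 of 340 in WT (4 genes). The cause of these changes was not tested.

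Replicate numbers were not taken to pair the samples. Between genotypes the correlations of same-numbered deviations were 0.0972, -0.123 and -0.314 in total RNA and -0.0487 in the IP. Between total RNA and IP of 1 genotype they were 0.116 and 0.102 in WT and 0.134 and 0.158 in KO, but each comparison has only 2 such pairs, and with 2 IP libraries a group the 2 values are not independent. With the replicate number as a block, 0 genes of the set were called in total RNA (0% of all genes), 0 in the IP comparison (0.261%), 19 in WT (31.4%) and 16 in KO (31.4%) IP against total RNA, and 0 in the interaction (0%). The calls lost were Slc27a1 in WT (adjusted p = 0.0601) and Pdk2 in KO (adjusted p = 0.11). The 7 genes at an unadjusted p under 0.05 in total RNA became 3 with the block (1.3% of all genes lower), 4 with no filter (2.95%) and 20 with library size alone (6.42%). Depth limits low values in the IP, where the shallowest library held 917462 counts.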
